A study of Mus musculus with 6 samples.

Results

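Cadherins and protocadherins of the cerebral cortex were examined as 1 group of cell surface genes, chosen by name: every probe set whose gene symbol began with Pcdh, or was Cdh followed by a number, was taken, except *Cdh5*, which is used here as a marker of endothelial cells. The rule found 102 of 45077 probe sets. They named 89 gene symbols and stood for 57 measured units, here called genes, because the probe sets of the alpha and gamma clusters each name many genes at once and were counted as 1 unit. Each probe set sums several short probes against a transcript, and where a gene had more than 1 probe set, the one with the highest mean signal gave its main value. *Cdh12*, *Cdh19* and *Cdh24* were not analysed here, and the gene once named *Pcdh21* is listed as *Cdhr1*, which the rule does not match and which is given with the wider superfamily.

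RNA came from the cerebral cortex of 6 male mice, with 2 mice in each of 3 groups. The labels give their age as 16 weeks. The methods of the study state that age for the mice used. They give no age for when the cortex was taken, after acclimatization, administration and testing. SAMR1 + Water mice were of the senescence-resistant strain, and SAMP8 + Water mice, called SAMP8 control, were of the senescence-accelerated prone strain. Both received water by mouth. SAMP8 + STEE mice, called STEE-fed SAMP8, received the ethanolic extract of sugarcane tops at 20 mg/kg for 30 days and then through 8 days of behavioral testing. All mice were housed singly and went through those tests, and the methods of the study also give mice BrdU, a label of dividing cells, in the drinking water. SAMP8 and SAMR1 are separate inbred lines, so that strain and any other difference between the lines cannot be told apart. The values are the authors' group means of log2 signal, 1 per group and probe set, and the spread between the 2 mice of a group is not contained in them. Every difference below is therefore a description without a test.

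Cadherins are membrane proteins that bind across the gap between cells, and those of type I and type II do so in the presence of calcium and hold on to the actin skeleton through catenins. Nonclustered protocadherins of the delta-1 and delta-2 groups act in cell sorting, axon growth and synapse formation, partly through the WAVE complex, which drives actin branching. Clustered protocadherins sit in 3 tandem arrays, alpha, beta and gamma, from which each neuron uses its own combination, giving its surface an identity that lets it tell its own branches from those of other cells. Genes of the alpha and gamma clusters join a variable first exon to shared last exons, whereas every beta gene is a single exon of its own. The array reads the 3′ part of transcripts, and the probe sets of the alpha and gamma clusters accordingly list 14 or 9 alpha genes and 22 gamma genes.

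The promoters of *Pcdh10* and *Pcdh19* are printed because these delta-2 protocadherins were read by several probe sets and, as described further on, most of those of *Pcdh10* were higher and all of those of *Pcdh19* lower in SAMP8 control than SAMR1 mice. The sequences are from RefSeq on GRCm38.p6, 5′ to 3′ on the strand of the gene, from 250 bases before to 50 bases after the start of the transcript. *Pcdh10* lies at chr3:45378148-45378447 on the plus strand and *Pcdh19* at chrX:133688944-133689243 on the minus strand. Capitals mark the GC box, searched as GGGCGG on both strands, which is the site of Sp-family factors.
Pcdh10: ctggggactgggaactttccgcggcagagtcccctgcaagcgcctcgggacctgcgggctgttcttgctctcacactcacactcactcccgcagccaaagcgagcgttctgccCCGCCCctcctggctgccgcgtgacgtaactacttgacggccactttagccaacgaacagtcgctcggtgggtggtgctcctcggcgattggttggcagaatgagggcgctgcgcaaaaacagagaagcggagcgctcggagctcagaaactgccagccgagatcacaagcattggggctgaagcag
Pcdh19: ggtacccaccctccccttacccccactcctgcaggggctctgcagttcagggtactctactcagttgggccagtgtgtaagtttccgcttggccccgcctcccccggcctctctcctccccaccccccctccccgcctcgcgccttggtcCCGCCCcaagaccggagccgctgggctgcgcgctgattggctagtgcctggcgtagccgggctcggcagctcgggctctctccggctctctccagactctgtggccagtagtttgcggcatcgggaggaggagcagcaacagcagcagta
Each held 1 GC box, 137 bases before the start in *Pcdh10* and 100 bases before it in *Pcdh19*. CG pairs numbered 24 in the *Pcdh10* window and 18 in the *Pcdh19* window, against a median of 7 over 32851 promoters. A GC box was found in 35.7% of all promoters and in 8 of the 20 member genes with a promoter in the table, so that it did not set these genes apart. TATAAA, in 13.6% of all promoters, and the E-box CACGTG, in 7.15%, were found in neither window.

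Few members differed between the strains. A difference is called here when the group means were at least 0.3 apart on the log2 scale, or 1.23-fold on the linear scale. In SAMP8 control compared to SAMR1 mice, 2 of 57 genes were called higher, *Cdh4* and *Pcdhb17*, against 2.61% of 21571 symbol entries, and 0 were called lower, against 2.25%. Over single probe sets, 4 of 102 were called higher, against 2.84% of all 45077, and 0 lower, against 2.5%. These counts lie near the share of all genes. The differences of the 57 genes ran from -0.27 to 0.33 with a median of 0, 28 above 0 and 27 below, and their median size was 0.07, the same as over all symbol entries.

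With STEE the differences of the members were smaller still. After STEE, set against SAMP8 control, 0 of 57 genes were called in either direction, against 0.644% of symbol entries higher and 0.598% lower. Of the 102 probe sets, 1 was called higher, against 0.668%, and 0 lower, against 0.595%. The differences ran from -0.19 to 0.22 with a median of 0. Their median size was 0.05, and it was 0.06 over all symbol entries. This comparison uses the same SAMP8 control mice as the strain comparison, so a SAMP8 control mean that is high by chance raises one difference and lowers the other.

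**Figure D1:**
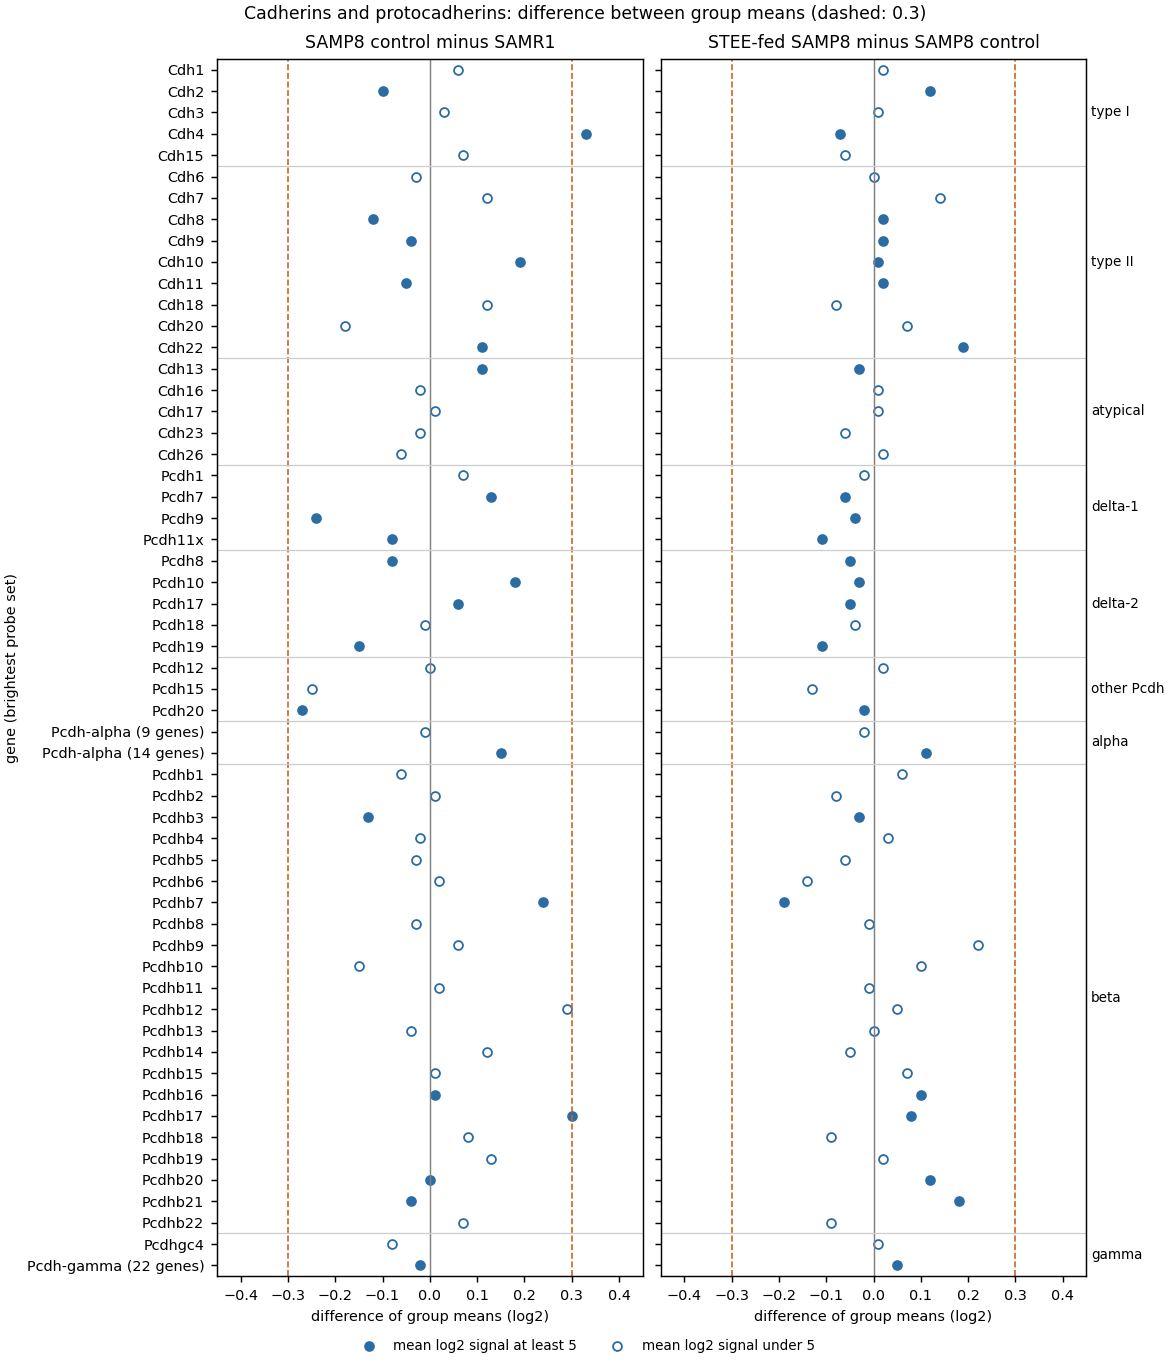
Difference of group means on the log2 scale for the 57 genes at the brightest probe set, 1 point per gene, grouped by family. Filled points have a mean log2 signal of at least 5 and open points less, and the dashed lines at 0.3 mark the size called. *Cdh4* lies beyond the line and *Pcdhb17* on it in the strain comparison (left), and 0 genes reach it with STEE (right).

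**Figure D2:**
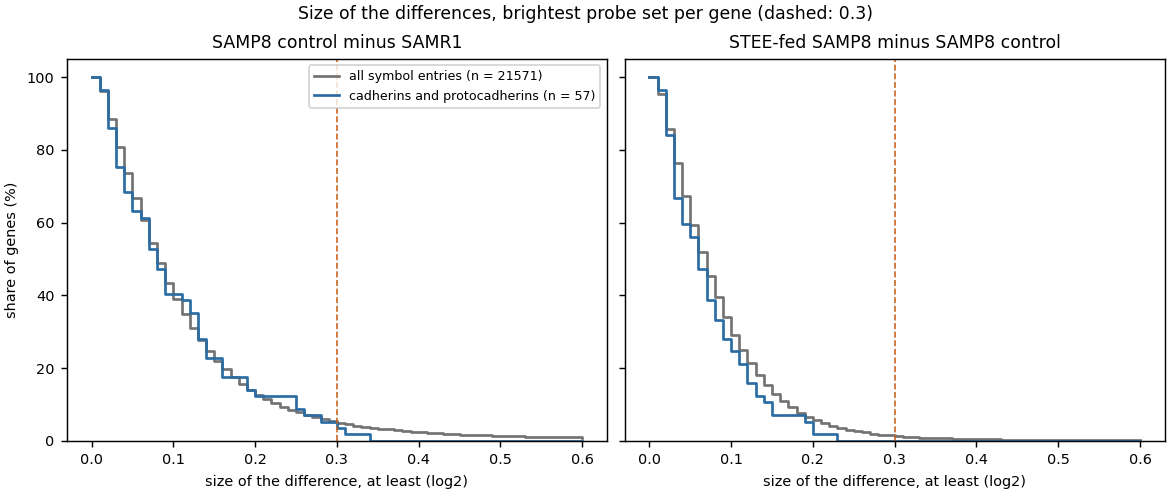
Share of genes, in percent, whose difference has at least the size given on the x axis (log2), for the 57 cadherin and protocadherin genes and for all 21571 symbol entries. The steps of the members follow those of all entries between the strains and lie below them over most sizes with STEE, and end at 0.33 for strain (left) and 0.22 for STEE (right).

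Signal sets how far a value can be read. The brightest probe set had a mean log2 signal of at least 5 for 24 of the 57 genes and under 5 for 33. The median over all probe sets of the array was 4.16 in SAMR1, 4.15 in SAMP8 control and 4.15 after STEE, so most of the dim members lay near or below the middle of the array. Over the 24 brighter genes, the median size of the strain difference was 0.115, compared with 0.09 over the 10106 symbol entries of that brightness. For STEE the median sizes were 0.055 and 0.06.

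Among type I cadherins, *Cdh4* (R-cadherin, a cadherin of retina and brain) had the largest strain difference of all 57 genes. Its brightest probe set had a group mean of 5.55 in SAMR1, 5.88 in SAMP8 control and 5.81 after STEE. The other bright one gave 5.28, 5.67 and 5.65. Both were thus higher in the SAMP8 groups, by 0.33 (1.26-fold) and 0.39 for SAMP8 control, and moved by -0.07 and -0.02 with STEE. The last probe set of *Cdh4* was dim in every group, at 2.41, 2.36 and 2.40, and differed by -0.05.

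*Cdh2* (N-cadherin), the main classical cadherin of neurons and a component of synaptic junctions, showed the opposite arrangement at a smaller size. Its brighter probe set read 8.68 in SAMR1, 8.58 in SAMP8 control and 8.70 after STEE, and the other read 7.13, 7.02 and 7.15. Both were lower in SAMP8 control than SAMR1, by -0.10 and -0.11, and higher with STEE, by 0.12 and 0.13. The mean of STEE-fed SAMP8 was within 0.02 of that of SAMR1 in both. Neither difference reached the size called. *Cdh1* (E-cadherin), *Cdh3* (P-cadherin) and *Cdh15* (M-cadherin), cadherins of epithelia and muscle, had means between 2.65 and 3.36 in every group.

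The type II cadherins, several of which mark particular sets of neurons and their connections, held 9 measured genes. Of these, 0 were called in either comparison. Over all symbol entries 2.61% were called higher and 2.25% lower between the strains, and 0.644% and 0.598% with STEE. These shares leave room for few or no calls among 9 genes. The strain differences of the 9 type II genes ran from -0.18 to 0.19 around a median of -0.03. *Cdh10* had the highest of these, with 7.39 in SAMR1, 7.58 in SAMP8 control and 7.59 after STEE. A second bright probe set of *Cdh10* went the other way, with 7.19, 6.97 and 7.02. The gene therefore has no direction in these data, and the mean over its 4 probe sets was 0.02. *Cdh20* was lowest in SAMP8 control, at 4.46, 4.28 and 4.35, from a single dim probe set.

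The other type II cadherins differed little. *Cdh8* read 6.54, 6.42 and 6.44 in SAMR1, SAMP8 control and STEE-fed SAMP8 mice, and its 3 probe sets were all lower in SAMP8 control, by -0.12 to -0.03. *Cdh9*, which acts at synapses of the hippocampus, read 6.93, 6.89 and 6.91. *Cdh11* read 7.35, 7.30 and 7.32. *Cdh9* and *Cdh11* thus stayed within 0.05 across the 3 groups. *Cdh18* was dim, with 2.53, 2.65 and 2.57.

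With STEE, the type II cadherin that differed most was *Cdh22*, a cadherin of pituitary and brain. It read 5.94 in SAMR1, 6.05 in SAMP8 control and 6.24 after STEE, a difference of 0.19 (1.14-fold) with STEE after 0.11 between the strains. *Cdh7* had the same order of the groups, with 4.33, 4.45 and 4.59, and its second probe set read 3.60, 3.64 and 3.74. Both cadherins were thus lowest in SAMR1 and highest in STEE-fed SAMP8 mice, by less than the size called in each step.

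Of the atypical cadherins, *Cdh13* (T-cadherin), which is anchored in the membrane by a lipid and lacks the tail that binds catenins, was the 1 bright gene. Its 2 bright probe sets read 7.18, 7.29 and 7.26, and 6.53, 6.71 and 6.61, so both were higher in SAMP8 control than SAMR1 mice, by 0.11 and 0.18. A dim probe set of *Cdh13* was the 1 member probe set called with STEE, at 4.11 in SAMR1, 4.19 in SAMP8 control and 4.50 after STEE, a difference of 0.31. The bright probe sets of the same gene moved by -0.03 and -0.10 in that comparison. *Cdh16*, *Cdh17*, *Cdh23* and *Cdh26*, of which *Cdh16* is known from kidney, *Cdh17* from intestine and *Cdh23* from the tip links of hair cells, were dim and differed by at most 0.06 in size between the strains and with STEE at their brightest probe sets.

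Of the delta-2 protocadherins, *Pcdh10* (OL-protocadherin), which guides axons through the ventral forebrain, had 6 probe sets, the most of the 57 genes, of which 5 were higher in SAMP8 control than SAMR1 mice. The brightest read 7.60 in SAMR1, 7.78 in SAMP8 control and 7.75 after STEE. A second bright one read 7.53, 7.75 and 7.63. A dimmer one was called, at 5.39, 5.82 and 5.65, a difference of 0.43. The other 3 differed by -0.01, 0.05 and 0.24. With STEE, 5 of the 6 were lower, by -0.17 to -0.03, and 1 was higher by 0.02. SAMP8 control thus had the highest mean of the 3 groups in 5 of the 6 probe sets, and the differences were unequal between them.

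*Pcdh19*, an X-linked protocadherin whose human counterpart is mutated in an inherited epilepsy, went the other way. Its 3 probe sets read 7.47, 7.32 and 7.21, then 7.35, 7.20 and 7.21, then 6.14, 5.92 and 5.95, in SAMR1, SAMP8 control and STEE-fed SAMP8 mice. All 3 were lower in SAMP8 control than SAMR1 mice, by -0.15, -0.15 and -0.22. With STEE they differed by -0.11, 0.01 and 0.03, so both SAMP8 groups lay below SAMR1. *Pcdh8* (arcadlin), which neuronal activity induces, was lower in SAMP8 control by -0.08 and -0.06, from 8.50, 8.42 and 8.37, and from 8.10, 8.04 and 8.03. *Pcdh17* was higher by 0.06 and 0.16, from 8.14, 8.20 and 8.15, and from 7.67, 7.83 and 7.88. *Pcdh18* was dim.

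Delta-1 protocadherins and the remaining nonclustered genes held the lowest strain differences of the 57 genes, and in several of these the size or the direction depended on the probe set read. *Pcdh20* read 6.07 in SAMR1, 5.80 in SAMP8 control and 5.78 after STEE with its brighter probe set, a difference of -0.27 between the strains. With the other it read 5.29, 5.58 and 5.54, a difference of 0.29. *Pcdh9*, a delta-1 protocadherin of the forebrain, read 9.41, 9.17 and 9.13 with one bright probe set and 8.97, 9.09 and 9.17 with another. For *Pcdh20* and *Pcdh9* the 2 bright probe sets of the same gene therefore differed in direction between the strains. The dim probe set of *Pcdh9* read 4.66, 4.65 and 4.83.

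*Pcdh15*, the partner of *Cdh23* in hair cell tip links, read 5.07, 4.82 and 4.69, a difference of -0.25 between the strains at a mean signal of 4.86. All 3 of its probe sets were thus dim, and the other 2 differed by 0 between the strains. *Pcdh7* was higher in SAMP8 control at its bright probe set, with 8.17, 8.30 and 8.24, while a dim one read 3.17, 2.90 and 2.74. *Pcdh11x*, a second X-linked protocadherin, read 6.94, 6.86 and 6.75, and 6.19, 6.07 and 5.99. Both of its probe sets had the order SAMR1, SAMP8 control, STEE-fed SAMP8 from high to low. *Pcdh1* and *Pcdh12*, the latter a protocadherin of endothelial cells, were dim in all groups.

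**Figure D3:**
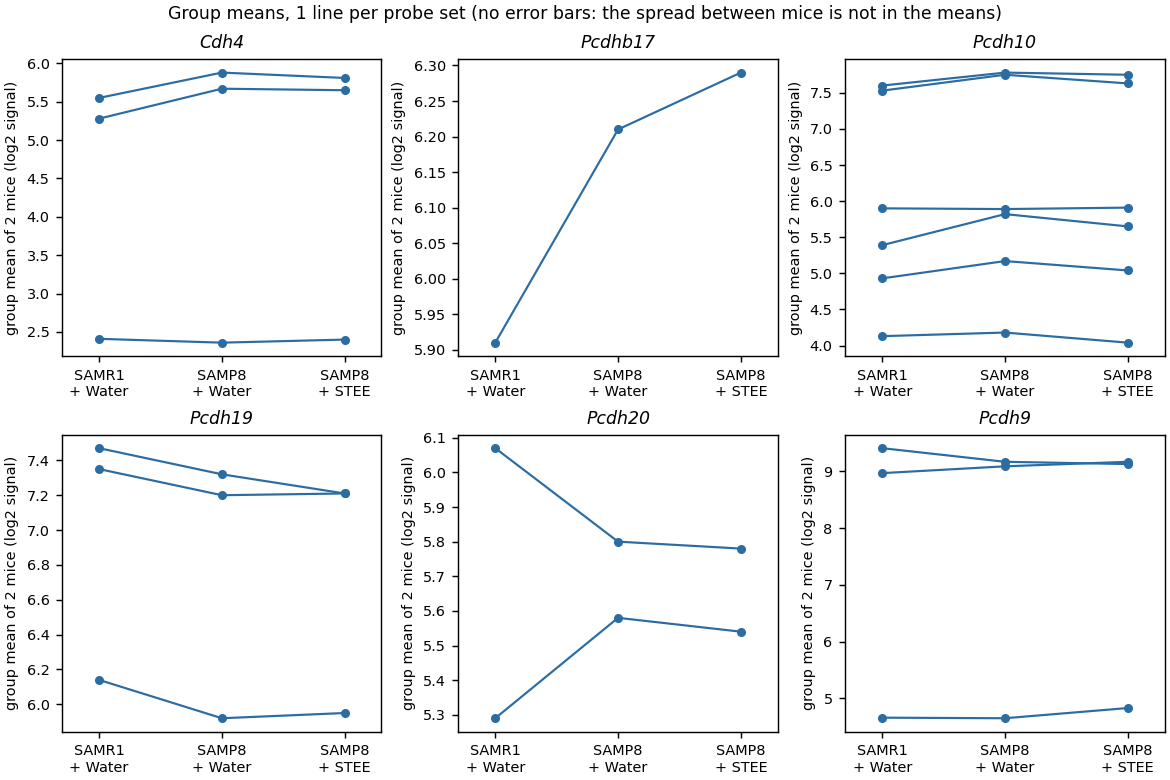
Group mean of log2 signal for each probe set of 6 genes in SAMR1 + Water, SAMP8 + Water and SAMP8 + STEE mice, 1 line per probe set, with a y axis of its own in each panel and no error bars because the means carry no spread. The 2 bright lines of *Cdh4* run together, the 3 of *Pcdh19* are all lower in SAMP8 + Water than in SAMR1 + Water mice, and the 2 of *Pcdh20* run in opposite directions.

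Nonclustered protocadherins had small differences of mostly the same sign with STEE. Of the 12 genes, 11 had a lower mean after STEE and 1 was higher, within -0.13 to 0.02 and with a median of -0.045. Over all symbol entries with a mean signal of at least 5 the median was 0.02, with 3946 of 10106 below 0. Over all symbol entries it was 0, with 10202 of 21571 below 0. The sign depended on the probe set in some of the 12 genes. With probe sets averaged, *Pcdh17* was at 0 and *Pcdh9* at 0.07, and the other genes were below 0. Among those was *Pcdh12*, which was at 0.02 at its brightest probe set and at -0.04 averaged. For *Pcdh19*, 2 probe sets were higher and 1 was lower. The size of these differences was small beside the 0.3 used for a call, and a difference of 2 rounded means can be off by 0.01 from rounding alone. The lowest were *Pcdh15* at -0.13 and *Pcdh11x* and *Pcdh19* at -0.11. Between the strains, 4 of the 12 were higher and 7 lower, with a median of -0.045 as well. The 19 cadherins had a median of 0.01 in both comparisons.

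The alpha cluster was read by 3 probe sets that each list 14 alpha genes, which cannot be separated here. The brightest read 8.74 in SAMR1, 8.89 in SAMP8 control and 9.0 after STEE. The second read 7.48, 7.77 and 7.83, and the last 6.62, 6.78 and 6.87. All 3 had the same order of groups, higher in SAMP8 control than SAMR1 by 0.15, 0.29 and 0.16, and higher again with STEE by 0.11, 0.06 and 0.09. None of these steps reached 0.3. They share the arrays and list the same genes, and so are not independent of each other. A second alpha unit of 9 genes was dim, with 3 probe sets between 2.96 and 4.37.

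The gamma cluster showed no such order. Its 1 probe set for 22 genes read 7.77 in SAMR1, 7.75 in SAMP8 control and 7.80 after STEE, so the 3 groups lay within 0.05 of each other. *Pcdhgc4*, a gamma gene of the C type, read 4.37, 4.29 and 4.30 with a probe set of its own.

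The beta cluster has a probe set for each of 22 genes, and thus gives most of the view of single clustered genes. For 16 of the 22 the brightest probe set was under 5. Between the strains the median was 0.01, with 13 genes above 0 and 8 below. Of the 22 genes, 1 was called higher, against 2.61% of symbol entries, and 0 lower, against 2.25%. *Pcdhb17* read 5.91 in SAMR1, 6.21 in SAMP8 control and 6.29 after STEE, a strain difference of 0.30 (1.23-fold) that lay exactly on the threshold. The next below it was *Pcdhb12*, at 3.49, 3.78 and 3.83, a difference of 0.29 from a dim probe set. On the other side, the gene nearest to a call was *Pcdh20* at -0.27.

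*Pcdhb7* had its highest mean in SAMP8 control. It read 5.84 in SAMR1, 6.08 in SAMP8 control and 5.89 after STEE, a difference of 0.24 between the strains and of -0.19 with STEE, which left STEE-fed SAMP8 0.05 above SAMR1. *Pcdhb3*, another bright one, read 6.23, 6.10 and 6.07. *Pcdhb19* read 3.37, 3.50 and 3.52, and *Pcdhb10* read 3.36, 3.21 and 3.31, both dim. Along the cluster, *Pcdhb7*, *Pcdhb12* and *Pcdhb17* were each flanked by genes with differences of 0.08 or less in size. Of these flanking genes only *Pcdhb16* was bright. Whether neighbouring genes differ together can therefore not be judged from them.

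With STEE, beta genes differed in both directions, 11 above 0 and 10 below. *Pcdhb9* had the largest difference of the 57 genes, 0.22, from a dim probe set at 3.94 in SAMR1, 4.0 in SAMP8 control and 4.22 after STEE. *Pcdhb21* read 5.88, 5.84 and 6.02 and its second probe set 4.70, 4.76 and 4.85, so STEE-fed SAMP8 was highest in both. *Pcdhb20* read 6.48, 6.48 and 6.60, and *Pcdhb16* read 6.51, 6.52 and 6.62. Of the 6 bright beta genes, *Pcdhb16*, *Pcdhb17*, *Pcdhb20* and *Pcdhb21* were thus higher with STEE, by 0.08 to 0.18, and *Pcdhb3* and *Pcdhb7* lower, by -0.03 and -0.19. *Pcdhb6* at -0.14, *Pcdhb18* and *Pcdhb22* at -0.09 and *Pcdhb2* at -0.08 were dim.

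**Figure D4:**
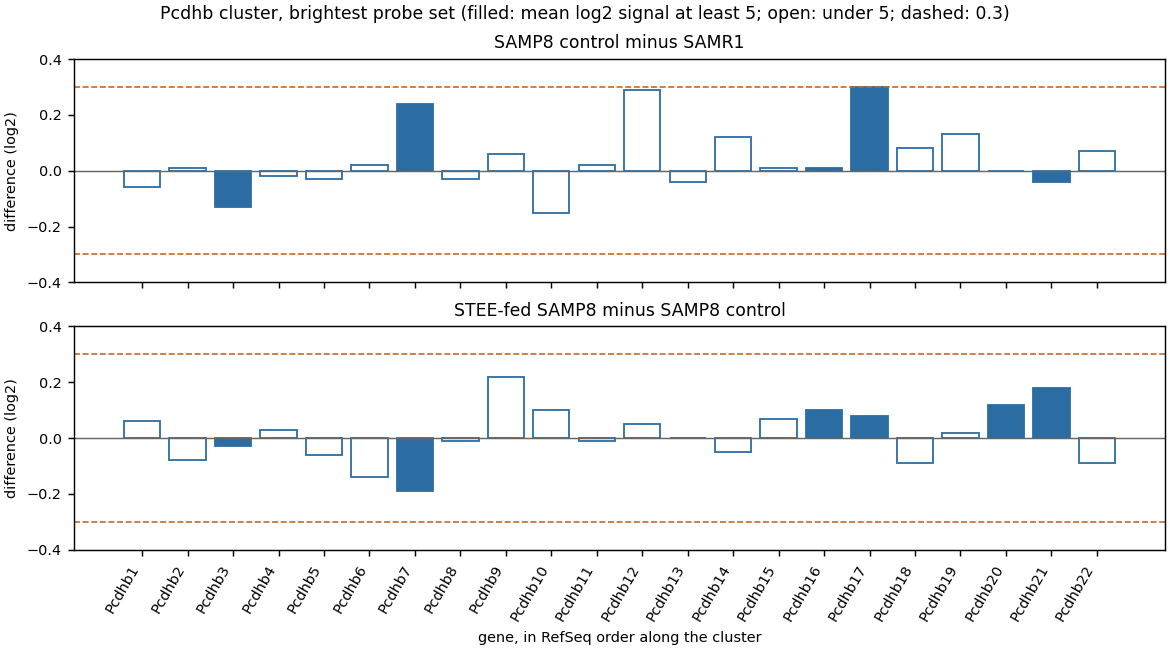
Difference of group means (log2) for the 22 beta protocadherin genes in their order along the cluster, between the strains (upper) and with STEE (lower), as bars from 0. Filled bars have a mean log2 signal of at least 5, and the dashed lines mark 0.3. *Pcdhb17* touches the line between the strains, and no bar reaches it with STEE.

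Probe sets of the same gene give a second view of how steady a difference is, although they share the arrays and are not replicates. With a mean signal of at least 5, 13 member genes had several probe sets. In 9 of the 13 all of them differed in the same direction between the strains, which was 69.2% against 54.2% of 3727 single-symbol genes. The members and the single-symbol genes are not like for like in either comparison. The 13 include the alpha unit, whose probe sets list 14 genes each, and the number of probe sets per gene was not matched. Higher in SAMP8 control were *Cdh4*, *Cdh13*, *Pcdh17* and the alpha unit of 14 genes, and lower were *Cdh2*, *Cdh8*, *Pcdh8*, *Pcdh11x* and *Pcdh19*. Directions were mixed in *Cdh10*, *Pcdh9*, *Pcdh10* and *Pcdh20*. The median gap between the highest and the lowest probe set of a gene was 0.09 for members and 0.14 over all, while the widest, in *Pcdh20*, was 0.56. With STEE 9 of 13 had a single direction, against 49.3% of all, at a median gap of 0.05.

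**Figure D5:**
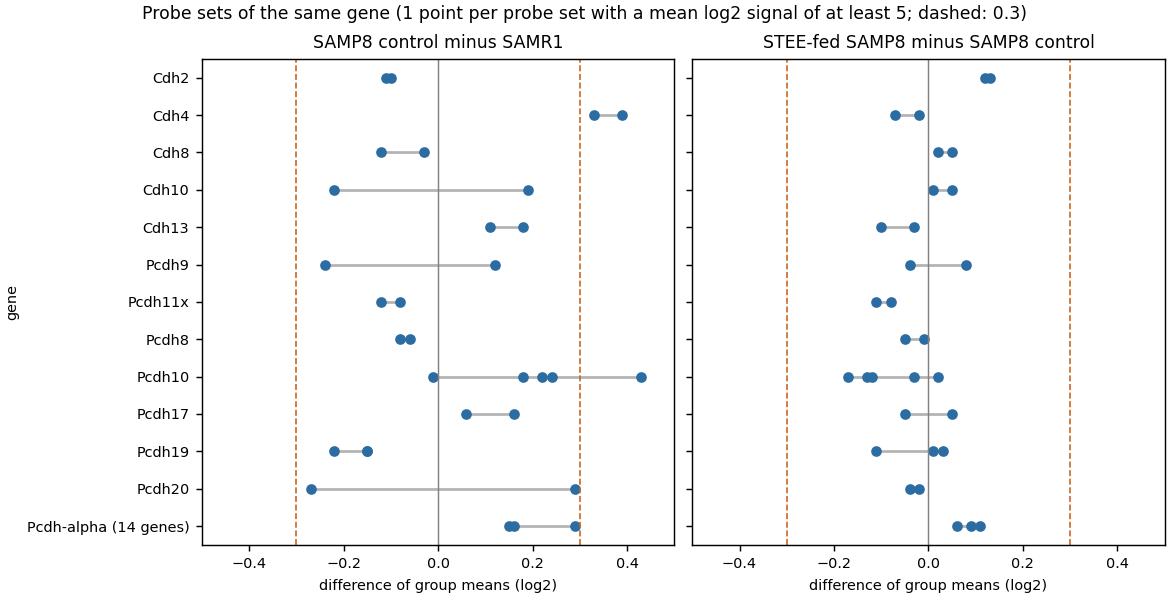
Differences of group means (log2) of the single probe sets of 13 genes, 1 point per probe set with a mean log2 signal of at least 5 and a grey bar from the lowest to the highest. In the strain comparison (left) *Cdh10*, *Pcdh9*, *Pcdh10* and *Pcdh20* have points on both sides of 0, and both points of *Cdh4* lie beyond 0.3.

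Set against SAMR1, STEE-fed SAMP8 mice had 3 of 57 genes called higher, against 3.31% of symbol entries, and 1 called lower, against 2.23%. *Pcdhb17* was higher by 0.38, *Pcdhb12* by 0.34 and *Cdh22* by 0.30, and *Pcdh15* was lower by -0.38. The probe sets of *Pcdhb12* and *Pcdh15* were dim, and the mean over the 3 probe sets of *Pcdh15* was -0.12, so that 0 genes were called lower with probe sets averaged or among the 24 brighter genes. Over probe sets, 6 of 102 were called higher, against 3.66%, and 3 lower, against 2.53%. The second probe set of *Cdh4* at 0.37, one of the alpha unit at 0.35 and the dim one of *Cdh13* at 0.39 were the others above, and dim probe sets of *Pcdh7* at -0.43 and *Cdh8* at -0.32 the others below. This comparison is the sum of both steps and adds no further mice.

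Genes that work with these proteins were read from short lists, in which the shares of all symbol entries called (2.61% higher and 2.25% lower between the strains, 0.644% and 0.598% with STEE) leave room for few or no calls. The 10 catenins and cytoplasmic partners, which tie cadherins to actin, held 0 called genes in either comparison, with medians of 0.03 and 0.025. *Ctnna2*, the alpha-catenin of neurons, read 7.20, 7.40 and 7.46 in SAMR1, SAMP8 control and STEE-fed SAMP8 mice. Of 13 genes of the WAVE complex and kinases bound by protocadherins, 1 was called lower between the strains and 1 higher with STEE, and both were *Wasf3*, an actin regulator read by a dim probe set, at 4.85, 4.23 and 4.56. *Wasf3* was thus lowest in SAMP8 control, by -0.62, and higher with STEE by 0.33. *Ptk2*, the focal adhesion kinase, was called in STEE-fed SAMP8 compared to SAMR1 alone, at 7.46, 7.58 and 7.82.

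The 11 regulators of the clustered promoters, among them *Ctcf* and the cohesin genes that loop enhancers to single promoters, held 0 called genes in either comparison. *Ctcf* itself read 7.55, 7.60 and 7.54. *Rest*, a repressor of neuronal genes read by a dim probe set, was called lower in STEE-fed SAMP8 compared to SAMR1, at 4.77, 4.48 and 4.36. Of the 4 genes of cadherin shedding and turnover, 0 were called, and *Adam10*, the protease that cuts N-cadherin, read 8.34, 8.34 and 8.41. In the wider cadherin superfamily 15 of 16 listed genes were measured. *Cdhr1*, a cadherin first known from photoreceptors, read 4.82, 5.67 and 4.90, a difference of 0.85 between the strains and of -0.77 with STEE, and *Fat4*, a giant cadherin of planar polarity, read 5.40, 5.10 and 5.10. *Dchs2* was not analysed here.

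The cortex samples differed between the strains in markers of neighbouring tissue and of cell types such as those of myelin. A lower signal from fewer cells of a type cannot be told apart from less RNA per cell. All 9 striatum markers measured were called higher in SAMP8 control than SAMR1, with a median of 0.61. Their mean level was 7.72 in SAMR1, 8.32 in SAMP8 control and 8.38 after STEE, and *Ppp1r1b* read 7.13, 8.00 and 7.97. Called lower in SAMP8 control were 3 of 7 thalamus markers (*Tcf7l2*, *Slc17a6* and *Prkcd*), 3 of 8 of choroid plexus (*Ttr*, *Kcne2* and *Otx2*), 3 of 8 of hippocampus (*Dsp*, *C1ql2* and *Lct*), 5 of 10 of myelin (*Mobp*, *Mog*, *Mag*, *Cnp* and *Opalin*), 2 of 7 of meninges (*Dcn* and *Igf2*) and 1 of 8 of vessels (*Pdgfrb*). Below 0 at any size were 6 of 7 for thalamus, 7 of 8 for choroid plexus, 7 of 8 for hippocampus, 10 of 10 for myelin, 5 of 7 for meninges and 6 of 8 for vessels. The mean levels in the same order of groups were 6.45, 6.05 and 5.84 for thalamus, 5.15, 4.76 and 4.90 for choroid plexus, 4.91, 4.68 and 4.68 for hippocampus and 9.03, 8.72 and 8.71 for myelin. They were 4.97, 4.80 and 4.85 for meninges and 5.48, 5.41 and 5.42 for vessels. Of the markers called lower, *Kcne2*, *Otx2*, *Dsp*, *C1ql2* and *Lct* were dim, with means under 5 in every group. The 2 hippocampus markers with a mean signal of at least 5, *Wfs1* and *Zbtb20*, were not called, at -0.08 and -0.15. Of the 3 choroid plexus markers of that brightness, *Ttr* was called, and *Clic6* at -0.18 and *Enpp2* at -0.19 were not.

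Markers of the labelled tissue were present in all groups. *Slc17a7*, the glutamate transporter of cortical projection neurons, read 7.05, 7.10 and 7.19, and *Camk2a* read 10.97, 10.98 and 11.00. Of 11 cortical neuron markers 0 were called between the strains, and 1, *Cux2*, was called higher with STEE. Of 6 astrocyte and 6 microglia markers 0 were called in either comparison. With STEE, *Calb2* and *Zic1* of the thalamus list were called lower and *Ttr*, which read 10.20, 8.24 and 9.33, was called higher. The other 5 genes of the thalamus list were not called, with *Tcf7l2* at -0.06, *Prkcd* at -0.03 and *Slc17a6* at 0.24. Below 0 at any size were 6 of the 7, and 1 was above. *Mbp* read 12.18, 12.03 and 11.95 and *Cdh5* read 4.18, 4.20 and 4.17. Cadherins and protocadherins are expressed by region and cell type. The part of neighbouring tissue and cell types in the strain differences of *Cdh4*, *Pcdh10* and *Pcdh19*, among others, was not tested.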

How the data were processed

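RNA from the cerebral cortex of 2 mice per group was labelled with the 3′ IVT PLUS kit and put on array strips of the Affymetrix Mouse Genome 430 PM design, with 1 array for each mouse. The authors summarised probe intensities with RMA in Expression Console and averaged the arrays of a group in Transcriptome Analysis Console. They deposited log2 group means, rounded to 2 decimals, for 45077 probe sets in 2 tables, which held identical SAMP8 control means. RMA gives all arrays the same distribution and can compress fold changes. Columns of linear fold changes, ANOVA p-values and FDR-adjusted p-values of the authors' comparisons were not used. Values per array were not used here, so no test, SD or interval was computed, and the number of arrays limits the precision.

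Groups were taken from the sample labels. Differences of group means were computed for 3 comparisons with Python 3.11.15, numpy 2.4.6 and pandas 2.3.3, and drawn with matplotlib 3.10.9. A gene was called at a difference of at least 0.3. Background counts used the brightest probe set of 21571 symbol entries. The genes named are all called members, the 10 highest and 10 lowest differences per comparison, members with a called probe set, those next to the threshold, and called genes of the pathway and marker lists with 6 defining markers; a few more members, and *Ctnna2*, *Ctcf* and *Adam10*, were added after their values were seen. Members and lists were chosen with earlier results of these data known. The calling of differences and the centring in bins were run on simulated group means with planted changes well beyond the call size. This checks the code and gives no support for the calls reported here. Alternatives were other call sizes, the mean over probe sets, a filter at a mean signal of 5, 2 ways of centring and leaving out probe sets that list several genes. Promoters of clustered genes and protein sequences were not analysed here.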

Additional observations from a re-analysis of the deposited data

How the results depend on the processing

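The counts of called genes depend on the size chosen. At a size of 0.2, 4 genes were higher and 3 lower between the strains, and 1 was higher and 0 lower with STEE. For STEE-fed SAMP8 compared to SAMR1 the counts were 8 higher and 4 lower. In either direction these were 7, 1 and 12 of 57 genes, beside 2687, 1219 and 3026 of 21571 symbol entries. The counts over all entries thus rise at this size as well. At a size of 0.5, 0 genes were called in any of the 3 comparisons. With the probe sets of a gene averaged, 1 gene was higher between the strains, and 0 were lower in STEE-fed SAMP8 compared to SAMR1. That last count was also 0 of the 24 genes with a mean signal of at least 5, and 3 when differences were centred within 20 bins of signal. Centring each group on its median gave 3 genes higher between the strains. The other counts of called genes were within 1.5 times those reported.

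For single genes, 282 differences were recomputed, but most of them could hardly move. The filter on mean signal (36 differences) and leaving out probe sets that list several genes (60) kept the same brightest probe set and returned the same value. Centring (62 differences for each way) shifted values only slightly. The mean over probe sets was thus the informative setting. Under it 7 differences moved by more than 0.1 and 55 did not, among them genes with a single probe set, which could not move. Between the strains *Cdh10* went from 0.19 to 0.02, *Cdh4* from 0.33 to 0.22, *Pcdh15* from -0.25 to -0.08 and *Pcdh9* from -0.24 to -0.04. *Pcdh20* changed sign, from -0.27 to 0.01, as did *Pcdh7*, from 0.13 to -0.10, and *Pcdh9* with STEE, from -0.04 to 0.07. No called difference changed sign.

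No paired analysis was possible because the deposited columns are group means and carry no replicate numbers, and leaving out a mouse was not run for the same reason. Signal limits the 33 genes with a brightest probe set under 5.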
